A study of Mus musculus with 12 samples.

Results

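The 10 genes described here make up the core of MHC class I antigen presentation, and they were taken by name from the 20614 genes of the expression table. They are the heavy chains H2-D1 and H2-K1, the light chain B2m, the peptide transport and loading genes Tap1, Tap2 and Tapbp, the immunoproteasome subunits Psmb8, Psmb9 and Psmb10, and the class I transactivator Nlrc5. All 10 were found in the table. RNA was measured in astrocytes from male mice of 12 to 14 months (mean 13.5 months), bred on C57BL/6J. The Cd38+/+ group had 3 libraries, the Cd38+/- group 3 and the Cd38-/- group 6. The mutant allele, Cd38 tm1Lnd, is a global disruption in exons 2 to 3 of Cd38, which encodes an ectoenzyme that consumes NAD, so every cell of the animal carries it and not only astrocytes. Striatum, thalamus and substantia nigra were dissected together as midbrain tissue, endothelial cells, myelin and CD11b+ cells were removed with magnetic beads, and the remaining cells were captured on ACSA-2 beads. Neither the labels nor the methods tie each library to a separate animal, so p-values measure the spread between these libraries, which may be technical.

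Class I molecules show peptides from the inside of a cell on its surface, where CD8+ T cells read them. The proteasome cuts proteins into peptides, and in cells exposed to interferon its constitutive catalytic subunits are exchanged for the inducible ones encoded by Psmb8, Psmb9 and Psmb10. TAP1 and TAP2 form the transporter that carries peptides into the endoplasmic reticulum, tapasin (Tapbp) bridges the transporter to an empty heavy chain bound to B2m, and NLRC5 assembles with the RFX, CREB and NF-Y factors on the promoters of many of these genes. Astrocytes at rest carry little class I on their surface and raise it after interferon.

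Psmb9, Tap1, Psmb8 and Tap2 sit next to each other in the MHC. In GENCODE vM21 on GRCm38 (mm10), Tapbp lies on chromosome 17 from 33915899 to 33929292, H2-K1 from 33996017 to 34000347, Psmb9 from 34181987 to 34187764, Tap1 from 34187553 to 34197225, Psmb8 from 34197721 to 34201454, Tap2 from 34203527 to 34216321 and H2-D1 from 35262730 to 35267499. B2m lies on chromosome 2 from 122147686 to 122153083. Nlrc5 lies on chromosome 8 from 94434356 to 94527272 and Psmb10 on the same chromosome from 105935735 to 105938444.

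Promoters are shown for 3 genes, a heavy chain and the light chain as the most abundant members and Psmb10 as the member with the largest fall. The windows are the bases before the RefSeq start (GRCm38.p6), 5′ to 3′ on the strand of the gene, without bases that GENCODE places in an exon. Capitals mark matches, on either strand, to an interferon-stimulated response element (ISRE, GAAA and GAAA with NN between them), an NF-kB site (GGGGA and CCC with NN between them), a GAS element (TTC and GAA with NNN between them) or the Y-box core (CCAAT).
H2-K1, chr17:34000348-34000597, minus strand: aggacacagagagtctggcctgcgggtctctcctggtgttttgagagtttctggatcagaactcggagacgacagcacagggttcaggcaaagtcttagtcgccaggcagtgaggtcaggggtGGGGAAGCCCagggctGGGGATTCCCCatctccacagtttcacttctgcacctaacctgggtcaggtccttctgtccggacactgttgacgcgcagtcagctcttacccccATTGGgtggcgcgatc
B2m, chr2:122147437-122147685, plus strand: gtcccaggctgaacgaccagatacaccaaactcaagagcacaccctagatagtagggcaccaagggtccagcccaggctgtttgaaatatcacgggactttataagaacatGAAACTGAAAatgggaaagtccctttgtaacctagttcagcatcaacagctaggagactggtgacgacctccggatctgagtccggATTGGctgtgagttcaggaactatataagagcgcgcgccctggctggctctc
Psmb10, chr8:105938445-105938642, minus strand: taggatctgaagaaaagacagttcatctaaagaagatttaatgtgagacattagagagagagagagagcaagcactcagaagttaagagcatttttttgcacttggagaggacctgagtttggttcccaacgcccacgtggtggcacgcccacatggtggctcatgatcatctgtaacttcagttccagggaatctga
The H2-K1 window holds an NF-kB match that begins 127 bases before the start and a pair of overlapping ones, on both strands, at 111 and 110 bases. The same letters in the same spacing stand 187, 171 and 170 bases before the H2-D1 start. RefSeq gives H2-K1 a second start, whose window is not printed. The H2-K1 matches stand 141, 125 and 124 bases before it, and a further Y-box core stands 6 bases before it. The NF-kB letters were present in 1.41% of 32817 promoter windows of 250 bases. The B2m window holds an ISRE match 139 bases before the start, a motif found in 2.97% of windows, and a Y-box core at 53 bases. The Y-box core was present in 33.8% of windows, and also before Tap1, Psmb9, Tapbp, H2-D1 and H2-K1. The only GAS match stood 97 bases before the RefSeq start of Psmb8 (7.01% of windows). The Psmb10 window held none of these letters, which says nothing of other sites or of the factors. Windows were given for 8 of the 10 genes, not for Tap2 and Nlrc5. All 250 bases were searched, and the matches before H2-D1, Tap1, Psmb9, Tapbp and Psmb8 lie in bases that GENCODE places in an exon of that gene or of a neighbour. A match is a description of letters, and binding was not measured.

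The genotype labels were first checked on Cd38. Its TPM, an abundance corrected for transcript length and for the total of the library, was 149, 120 and 105 in Cd38+/+, 90.8, 90.7 and 90.4 in Cd38+/- and 8.54 to 21.9 in Cd38-/-, without overlap between genotypes. The astrocyte marker Gja1 held 1820 to 2519 TPM in Cd38+/+, 2896 to 3396 in Cd38+/- and 2167 to 3171 in Cd38-/-. TPM keeps no trace of read depth, so the depth behind a value is unknown. The Cd38+/+ libraries listed fewer genes above 0 (13160 to 13516) than the Cd38+/- (16160 to 16327) and Cd38-/- libraries (15920 to 17906), a difference that runs with genotype and cannot be told apart from it. Every comparison with Cd38+/+ below rests on these 3 libraries, and both mutant genotypes are compared with the same ones.

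In Cd38+/+ astrocytes the members spanned a wide range of levels. H2-D1 had the highest mean, 447 ± 89.95 TPM (SD, n = 3), followed by B2m with 384 ± 128 and H2-K1 with 378 ± 29.4, and the libraries of these 3 genes overlapped. Tapbp came next with 185 ± 31.7 TPM, below every library of H2-K1. Psmb10, Tap2 and Psmb8 followed with 122 ± 12.5, 93.2 ± 25.7 and 66.1 ± 10.2 TPM, each overlapping with its neighbour in this order. Tap1 with 19.7 ± 6.74 TPM and Psmb9 with 15.0 ± 9.45 TPM overlapped with each other and lay below Psmb8. Nlrc5 was lowest, with 2.87 ± 1.91 TPM. The order differed in the mutants: H2-K1 led in Cd38+/- (399.8 ± 24.8 TPM, n = 3, above every library of H2-D1) and in Cd38-/- (436 ± 64.0 TPM, n = 6, overlapping with H2-D1), Tap2 stood above Psmb10 with overlapping libraries, and Tap1 overlapped with Psmb8.

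**Figure D1:**
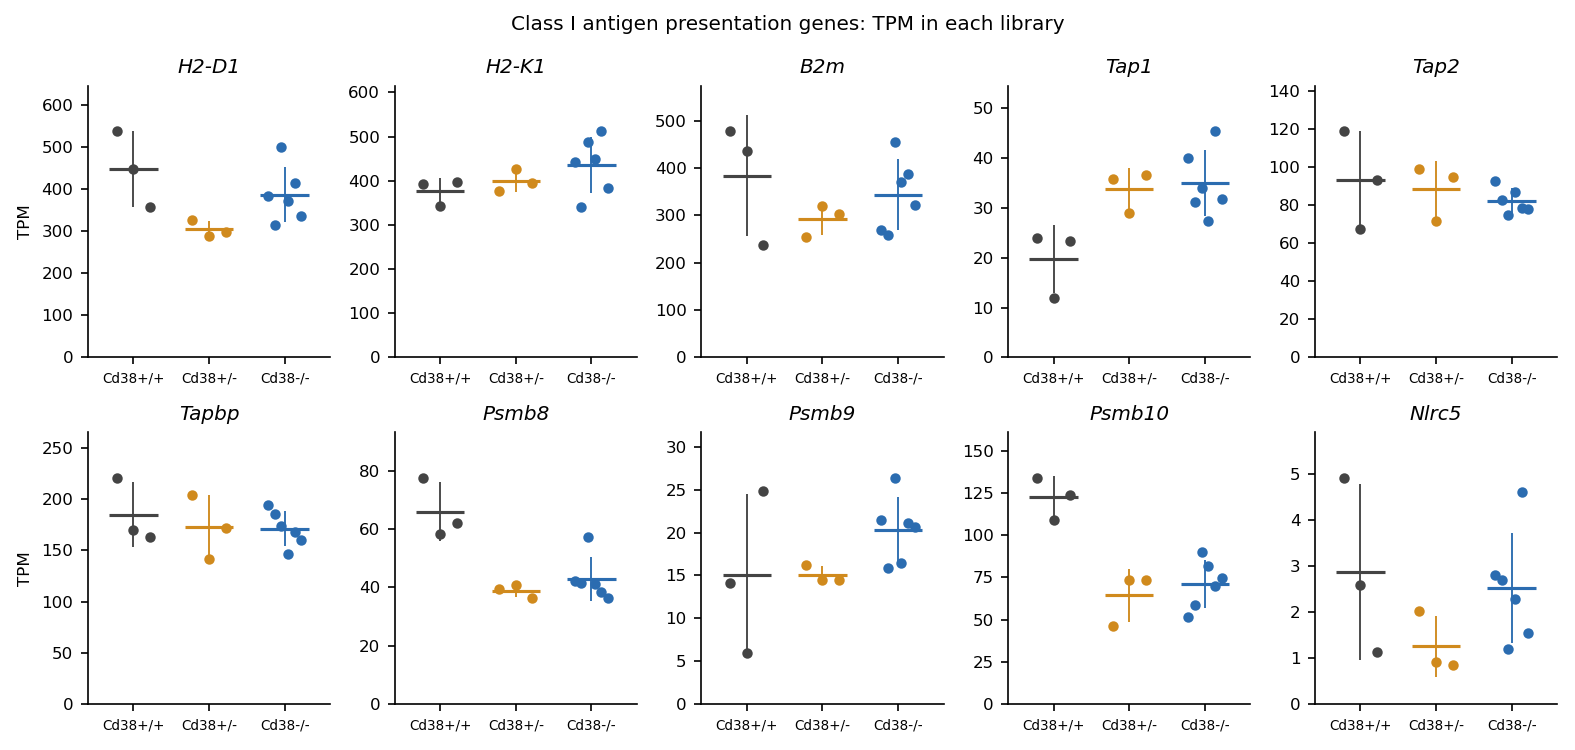
TPM of each of the 10 genes in the 12 libraries, with a panel and a linear axis from 0 for each gene. Points are libraries in replicate order, horizontal lines the mean of a genotype and vertical lines ± 1 SD. The 3 Cd38+/+ libraries lie above all mutant libraries for Psmb10 (109 to 134 TPM) and Psmb8 (58.5 to 77.7 TPM) and below all of them for Tap1 (12.0 to 23.9 TPM).

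Between Cd38-/- and Cd38+/+ astrocytes, the immunoproteasome genes Psmb10 and Psmb8 fell and the transporter gene Tap1 rose. The heavy chains, B2m, Tap2, Tapbp and Psmb9 did not pass the test. Of the 9 members above the expression filter (a mean over 5 TPM in a compared genotype), 3 were called in limma, which here means a Storey q below 0.05 together with a fold change of 1.2 or more. Among all 11722 genes tested, 8.28% were called, 6.42% higher and 1.86% lower in Cd38-/-, while 1 of the 9 members was called higher and 2 lower. The same 3 had an unadjusted p under 0.05, which 23.6% of all genes had (17.6% higher and 5.99% lower), and the same 3 did not overlap between these genotypes, as 11.8% of all genes did not (8.21% higher and 3.62% lower). The median log2 fold change was -0.12 over the 9 members and 0.15 over all genes tested. Nlrc5 fell under the filter and was not tested.

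Psmb10 encodes the inducible subunit that takes the place of the constitutive subunit from Psmb7. Its TPM was 134, 109 and 124 in Cd38+/+, 46.4, 73.5 and 73.5 in Cd38+/-, and 51.4, 58.5, 90.1, 82.0, 70.1 and 74.5 in Cd38-/-. Every mutant library lay below every Cd38+/+ library. Cd38-/- against Cd38+/+ gave a log2 fold change of -0.80 with a standard error of 0.18 (limma q = 0.0232), and the two-sided exact permutation test gave p = 0.0238, the smallest it can give for 6 against 3 libraries. Cd38+/- against Cd38+/+ gave -0.94 with a standard error of 0.23 (limma q = 0.176), which did not pass the threshold, and the exact permutation test gave p = 0.1, the smallest for 3 against 3 libraries. The fall in Cd38-/- no longer passed once Cd38-/- replicate 1, 2, 5 or 6 was left out (q between 0.0529 and 0.0640).

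Psmb8 encodes the inducible counterpart of the subunit from Psmb5. It had 77.7, 58.5 and 62.0 TPM in Cd38+/+, 39.3, 41.0 and 36.5 in Cd38+/-, and 42.4, 41.6, 57.4, 41.2, 38.5 and 36.4 in Cd38-/-. Cd38-/- replicate 3 stood close under the lowest Cd38+/+ library, and the other 5 Cd38-/- libraries fell within 36.4 to 42.4 TPM. Relative to Cd38+/+, Cd38-/- differed by -0.62 on the log2 scale with a standard error of 0.18 (limma q = 0.0418, exact permutation p = 0.0238). Cd38+/- differed by -0.74 with a standard error of 0.21 (limma q = 0.177, exact permutation p = 0.1) and was not called. Leaving out Cd38+/+ replicate 1, or Cd38-/- replicate 1, 2, 4, 5 or 6, ended the call in Cd38-/-, with q up to 0.0960. In the annotation, 14.7% of its exon bases overlap with the antisense gene Gm20496, whose reads this unstranded kit cannot separate.

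Psmb9, the inducible counterpart of the subunit from Psmb6, was not called in any comparison. It had 14.1, 5.99 and 24.8 TPM in Cd38+/+, 16.2, 14.4 and 14.5 in Cd38+/-, and 21.5, 15.9, 26.4, 16.5, 21.1 and 20.7 in Cd38-/-. The Cd38+/+ libraries spanned more than the whole range of Cd38+/-. The log2 fold change was 0.59 in Cd38-/- (95% interval -0.18 to 1.36, limma q = 0.189) and 0.20 in Cd38+/- (95% interval -0.92 to 1.32, limma q = 0.550), and neither passed the threshold. The Cd38-/- value rested on single Cd38+/+ libraries: it was 1.03 and passed (limma q = 0.0222) without replicate 3, the library with 24.8 TPM, and 0.09 (q = 0.435) without replicate 2, the library with 5.99 TPM.

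Each inducible subunit was set against its constitutive partner within the same library, which leaves out the scaling between libraries. Psmb10 exceeded Psmb7 in all 3 Cd38+/+ libraries, by 0.09 to 0.65 on the log2 scale, and lay below it in all 9 mutant libraries, by a difference of -0.80 to -0.42 in Cd38+/- and -0.74 to -0.24 in Cd38-/-. Psmb8 minus Psmb5 ran from -2.42 to -1.97 in Cd38+/+, from -2.78 to -2.39 in Cd38+/- and from -2.88 to -2.43 in Cd38-/-, overlapping with Cd38+/+ in Cd38+/- but not in Cd38-/-. The Psmb10 and Psmb8 differences reuse the values behind the calls of these genes and are not separate support for them. For Psmb9 minus Psmb6 the genotypes overlapped, with means of -5.40 ± 1.08 (SD, n = 3), -4.71 ± 0.21 (n = 3) and -4.44 ± 0.30 (n = 6). The constitutive partners themselves were not called in Cd38-/-, with log2 fold changes of -0.15 for Psmb5 (limma q = 0.269), -0.37 for Psmb6 (limma q = 0.0823) and 0.09 for Psmb7 (limma q = 0.422).

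Tap1 encodes a chain of the peptide transporter. It had 23.9, 12.0 and 23.4 TPM in Cd38+/+, 35.8, 28.9 and 36.5 in Cd38+/-, and 40.0, 31.3, 34.1, 27.4, 45.3 and 31.7 in Cd38-/-. All 9 mutant libraries exceeded the 3 Cd38+/+ libraries, with Cd38+/+ replicate 2 far under the others of its group. On the log2 scale the difference from Cd38+/+ was 0.83 in Cd38-/-, with a standard error of 0.25 (limma q = 0.0462, exact permutation p = 0.0238), and 0.80 in Cd38+/-, with a standard error of 0.34 (limma q = 0.226, exact permutation p = 0.1). Leaving out Cd38+/+ replicate 2 gave 0.53 in Cd38-/- (q = 0.0663), and leaving out Cd38-/- replicate 1, 2, 3, 5 or 6 also took q past the threshold (up to 0.103). Median-ratio scaling (0.71, q = 0.0585), quantile normalization (0.69, q = 0.0555) and a correction for length and GC (0.56, q = 0.0802) kept the direction and not the call.

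Tap1 and Psmb9 start close to each other on opposite strands, with 225 bases between their RefSeq starts. In GENCODE they share 212 exon bases, 3.87% of those of Tap1 and 5.79% of those of Psmb9, and reads there cannot be assigned by strand. On the log2 scale Tap1 exceeded Psmb9 by 0.51 ± 0.52 (SD, n = 3) in Cd38+/+, 1.11 ± 0.16 (n = 3) in Cd38+/- and 0.75 ± 0.26 (n = 6) in Cd38-/-. The Cd38+/- libraries lay above the Cd38+/+ libraries in this difference, and the Cd38-/- libraries overlapped with them.

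Tap2, which encodes the other chain of the transporter, was not called in any comparison. Its libraries held 119, 67.5 and 93.2 TPM in Cd38+/+, 98.9, 71.9 and 95.1 in Cd38+/-, and 92.6, 82.7, 74.7, 86.9, 78.5 and 78.3 in Cd38-/-. The groups overlapped, and the log2 fold change was -0.14 in Cd38-/- (95% interval -0.51 to 0.22) and -0.05 in Cd38+/- (95% interval -0.61 to 0.51). Within libraries, Tap1 minus Tap2 was -2.40 to -1.95 in Cd38+/+, -1.44 to -1.29 in Cd38+/- and -1.63 to -0.78 in Cd38-/-, so that the values of neither mutant overlapped with those of Cd38+/+. This difference reuses the Tap1 values behind the call above and is not separate support for it. In the annotation, 14.1% of Tap2 exon bases overlap with Gm15821 on the opposite strand.

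Tapbp, which encodes tapasin, had 221, 170.3 and 163 TPM in Cd38+/+, 204, 141 and 172 in Cd38+/-, and 194, 185, 174, 147, 168 and 160.3 in Cd38-/-. Its groups overlapped, with a log2 fold change of -0.10 in both mutants (95% intervals -0.39 to 0.19 in Cd38-/- and -0.54 to 0.34 in Cd38+/-). Of its exon bases, 24.9% overlap with the antisense gene Gm19412.

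The heavy chains H2-D1 and H2-K1 present peptides to T cells and differ in the peptides they hold. H2-D1 had 537, 447 and 357 TPM in Cd38+/+, 325, 288 and 299 in Cd38+/-, and 382, 315, 499, 371, 415 and 337 in Cd38-/-. Cd38+/- libraries lay below all Cd38+/+ libraries, while Cd38-/- libraries overlapped with them. Relative to Cd38+/+, the log2 difference in Cd38+/- was -0.54 with a standard error of 0.17 (limma q = 0.191, exact permutation p = 0.1), and in Cd38-/- it was -0.21 (95% interval -0.56 to 0.15, limma q = 0.264). Stretches of 100 bases that also occur in another gene make up 4.64% of H2-D1 transcript windows, mostly shared with H2-Q1, and no such stretch was found in H2-K1, so part of the H2-D1 value is uncertain.

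H2-K1 had 392, 344 and 397 TPM in Cd38+/+, 377, 427 and 395 in Cd38+/-, and 441, 341, 489, 449, 512 and 384 in Cd38-/-. The groups overlapped, with a log2 fold change of 0.20 in Cd38-/- (95% interval -0.10 to 0.50, limma q = 0.231) and 0.08 in Cd38+/- (95% interval -0.22 to 0.39, limma q = 0.502). The 95% intervals leave out a change of 2-fold in either direction for both heavy chains in Cd38-/-.

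B2m, the light chain that every classical heavy chain needs to reach the surface, had 478, 435 and 238 TPM in Cd38+/+, 254, 319 and 303 in Cd38+/-, and 269, 259, 455, 369.9, 388 and 322 in Cd38-/-. Cd38+/+ replicate 3 was lower than all mutant libraries and the other Cd38+/+ libraries were near or above the highest of them. The log2 fold change was -0.12 in Cd38-/- (95% interval -0.63 to 0.38) and -0.34 in Cd38+/- (95% interval -0.92 to 0.24). Without Cd38+/+ replicate 3 the Cd38-/- value was -0.43 (limma q = 0.0716), still not past the threshold.

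**Figure D2:**
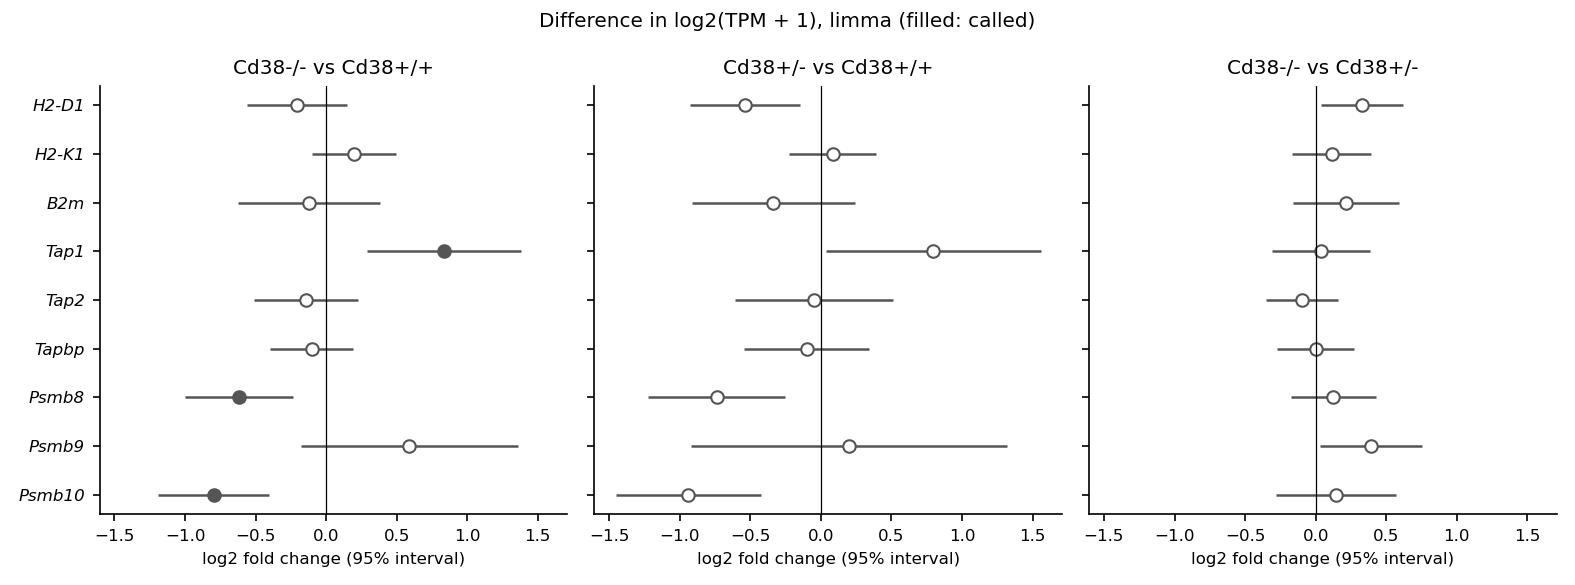
Log2 fold changes of the 9 tested members with 95% intervals from limma on log2(TPM + 1), in a panel for each comparison of genotypes. Filled points passed the threshold. In Cd38-/- against Cd38+/+ these are Tap1 (0.83), Psmb8 (-0.62) and Psmb10 (-0.80), and no member passed in the other comparisons.

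The peptide loading genes were then set against the heavy chains within each library, as the mean log2(TPM + 1) of Tap1, Tap2 and Tapbp minus that of H2-D1 and H2-K1. This difference was -2.88 to -2.39 in Cd38+/+ (n = 3), -2.38 to -1.95 in Cd38+/- (n = 3) and -2.68 to -2.05 in Cd38-/- (n = 6). The Cd38+/- libraries thus lay above the Cd38+/+ libraries by 0.44 in the mean, while the Cd38-/- libraries overlapped with them and were 0.20 above in the mean. The gap between the highest Cd38+/+ and the lowest Cd38+/- library was small, -2.39 against -2.38. Without Cd38+/+ replicate 2, the lowest Cd38+/+ library for Tap1 and Tap2, the mean differences were 0.28 for Cd38+/- and 0.04 for Cd38-/-.

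Both sides enter this shift, and it was unequal within each. In Cd38+/- against Cd38+/+ the log2 fold change was -0.54 for H2-D1 and 0.08 for H2-K1. For the loading genes it was 0.80 for Tap1, -0.05 for Tap2 and -0.10 for Tapbp. A difference from the heavy chains thus also carries the lower H2-D1 values of Cd38+/-. Tap1 minus the heavy chains was -4.36 ± 0.50 (SD, n = 3) in Cd38+/+, -3.34 ± 0.19 (n = 3) in Cd38+/- and -3.52 ± 0.25 (n = 6) in Cd38-/-, without overlap between Cd38+/+ and either mutant. Tap2 minus the heavy chains (-2.15, -1.98 and -2.29 in the order Cd38+/+, Cd38+/-, Cd38-/-) and Tapbp minus the heavy chains (-1.15, -1.02 and -1.25) overlapped among all genotypes. Between the heavy chains, H2-D1 minus H2-K1 was 0.23 ± 0.33 (n = 3), -0.39 ± 0.18 (n = 3) and -0.18 ± 0.12 (n = 6), and the Cd38+/- libraries lay below all Cd38+/+ libraries. B2m minus the heavy chains overlapped among all genotypes (means -0.15, -0.26 and -0.27). Psmb10 and Tap1 were called in opposite directions. Psmb10 minus Tap1 was 2.63 ± 0.40 (n = 3) in Cd38+/+, 0.89 ± 0.48 (n = 3) in Cd38+/- and 1.00 ± 0.46 (n = 6) in Cd38-/-. The width of this separation follows from those calls and adds nothing to them. Every other difference that holds Tap1, Psmb8 or Psmb10 likewise reuses called values and is not separate support. These differences are descriptions of the libraries and were not tested.

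**Figure D3:**
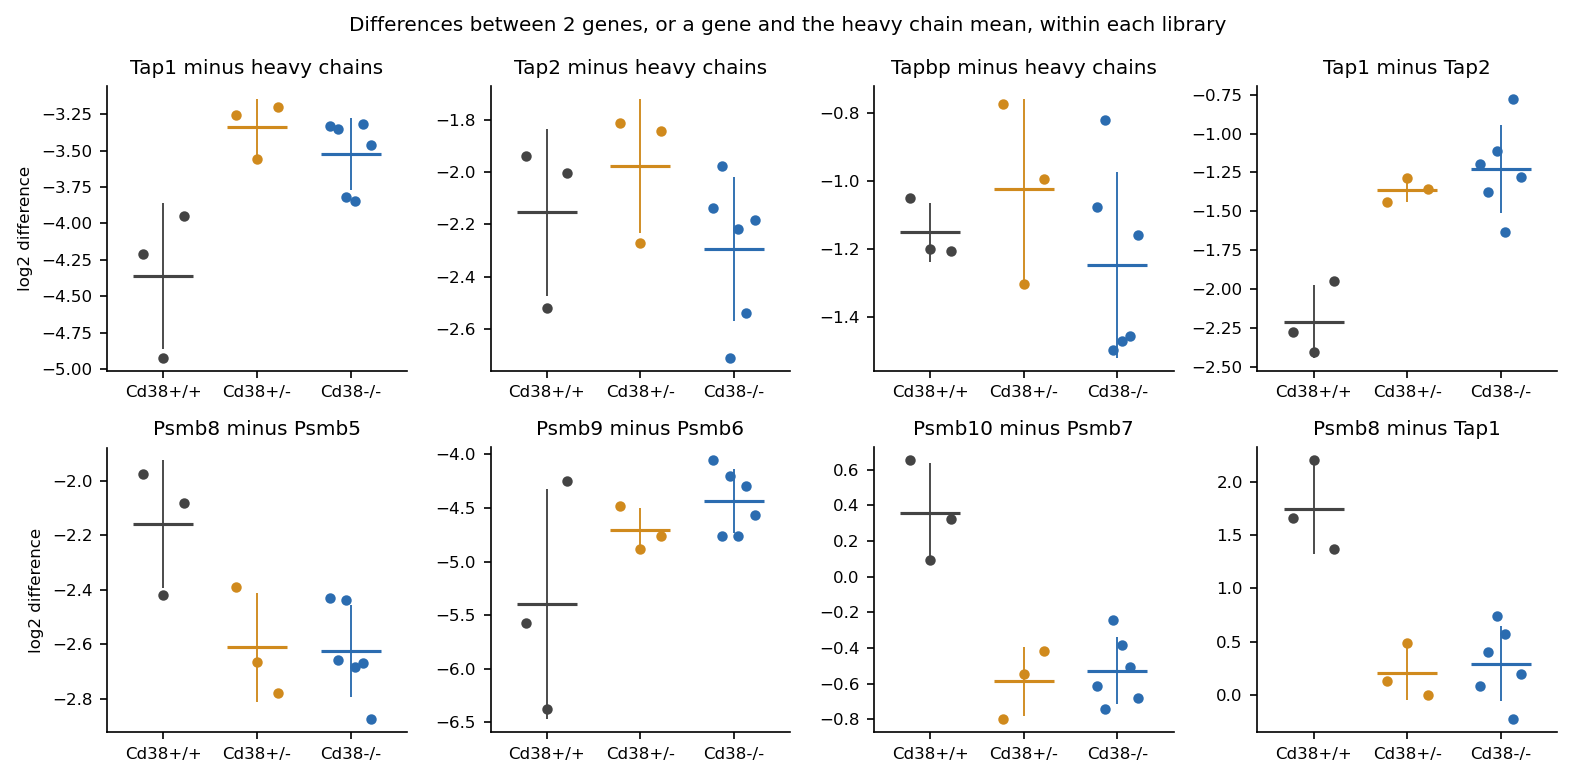
Log2 differences within each of the 12 libraries between a loading gene and the mean of H2-D1 and H2-K1, between Tap1 and Tap2, between each immunoproteasome subunit and its constitutive partner, and between Psmb8 and Tap1. Points are libraries, horizontal lines means and vertical lines ± 1 SD, and each panel has its own axis. Tap1 minus Tap2 is -2.40 to -1.95 in Cd38+/+ and -1.63 or higher in the mutants, whereas Tap2 and Tapbp minus heavy chains overlap among genotypes. Differences that hold Tap1, Psmb8 or Psmb10 reuse the values behind the calls of these genes.

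In Cd38+/- against Cd38+/+ as a whole, 0 of 9 tested members and 0 of 11763 genes (0%) were called by limma, with a smallest q of 0.158. At an unadjusted p under 0.05 stood 4 of the 9 members, Psmb10, Psmb8 and H2-D1 with lower and Tap1 with higher values in Cd38+/-, where 13.5% of all genes had such a p (9.5% higher and 3.99% lower). The same 4 members did not overlap between these genotypes, against 22.5% of all genes (15.5% higher and 6.94% lower). With all 12 libraries in one fit, these 4 were called, with q between 0.0166 and 0.0437.

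Cd38-/- and Cd38+/- were compared without the Cd38+/+ libraries. No member was called (0 of 9), while 0.0346% of 11563 genes were, 0.0173% higher and 0.0173% lower, Cd38 among them. The libraries of all 10 members overlapped, and those of 5.73% of all genes did not (2.85% higher and 2.88% lower). An unadjusted p under 0.05, which 11.2% of all genes had (6.24% higher and 5% lower), was found for H2-D1, with a log2 fold change of 0.33 in Cd38-/- relative to Cd38+/- (95% interval 0.04 to 0.62, limma q = 0.289), and for Psmb9, with 0.39 (95% interval 0.03 to 0.75, limma q = 0.300). For Tap1, Psmb8 and Psmb10 the differences were 0.04 (95% interval -0.31 to 0.39), 0.12 (-0.18 to 0.43) and 0.15 (-0.28 to 0.57). With library quality weights, H2-D1 and Psmb9 were called in this comparison (q = 0.00401 and 0.00239), as were 3120 genes in all.

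Nlrc5, the transactivator of class I genes, had 4.91, 2.58 and 1.12 TPM in Cd38+/+, 2.02, 0.90 and 0.84 in Cd38+/-, and 2.79, 2.68, 1.2, 2.27, 4.61 and 1.55 in Cd38-/-. The groups overlapped, and the exact permutation test gave p = 0.905 for Cd38-/- and p = 0.2 for Cd38+/- against Cd38+/+. Between the mutants the exact permutation test gave p = 0.0952. Fitted without the filter, the log2 fold change was -0.08 (standard error 0.40) in Cd38-/- and -0.70 (0.45) in Cd38+/- against Cd38+/+. Between Cd38-/- and Cd38+/- it was 0.61 (0.30). No difference was detected, and at a few TPM and an unknown depth a change could have been missed.

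Genes that act around the members were read from lists. Among 20 other genes for class I or class I-like heavy chains, 9 were tested in Cd38-/- against Cd38+/+, and 2 rose. Of all genes tested in this comparison, 6.42% were called higher and 1.86% lower. Mr1, which presents vitamin B metabolites to MAIT cells, rose from 41.2 to 45.4 TPM in Cd38+/+ to 64.3 to 86.2 in Cd38-/- (log2 fold change 0.79, standard error 0.14, limma q = 0.0144), and Cd38+/- held 60.4 to 82.4. It passed whichever library was left out, and no longer passed after the correction for length and GC (0.39, q = 0.0639), with library quality weights (q = 0.274) or with the replicate block (q = 0.337). Cd1d1, which presents lipids, rose from 0 to 3.10 TPM in Cd38+/+ to 3.57 to 7.06 in Cd38-/- (limma q = 0.0327), at levels where the fold change depends on the pseudocount. It did not pass without Cd38-/- replicate 1, 3, 4, 5 or 6 (q up to 0.0811), with Benjamini-Hochberg adjustment (0.0577), quality weights (q = 0.274) or the replicate block (q = 0.376). Quantile normalization gave a log2 fold change of 0.65 in place of 1.96 (q = 0.205). H2-M3, a presenter of formylated peptides, had a larger difference than Mr1, 1.07, and was not called (q = 0.202), with 0.33 to 25.6 TPM over the Cd38+/+ libraries alone.

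Of 12 genes for loading chaperones and peptide trimming, all tested, 1 rose and 1 fell in Cd38-/-. Over all genes tested, the shares called were 6.42% higher and 1.86% lower. Canx encodes calnexin, which holds newly made heavy chains, and had a log2 fold change of 0.48 (standard error 0.14, limma q = 0.0465). It had 154 to 235 TPM in Cd38+/+ and 233 to 299 in Cd38-/-, and it did not pass without Cd38+/+ replicate 1 or without any 1 of the 6 Cd38-/- libraries. The Canx call was also lost under 6 of 12 other settings, among them median-ratio scaling (0.36, q = 0.0820) and the correction for length and GC (0.26, q = 0.132). Sec61b, a subunit of the translocon, fell from 321 to 344 TPM in Cd38+/+ to 213 to 287 in Cd38-/- (log2 fold change -0.45, standard error 0.12, limma q = 0.0322, not passing without Cd38-/- replicate 1, 2, 5 or 6, nor under 4 of 12 other settings, with q up to 0.397). Tpp2, a cytosolic peptidase, had the largest difference of the list, 0.68, and did not pass (q = 0.0852).

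Of 9 proteasome activators and constitutive partners, all tested, 0 were called in limma and 2 had an unadjusted p under 0.05, both with lower values in Cd38-/-. Such a p was found for 23.6% of all genes tested, 17.6% with higher and 5.99% with lower values, and 8.28% were called. Psme4 and Psme3, for proteasome activators, had the largest differences, 0.67 (q = 0.139) and 0.43 (q = 0.126). Of 26 genes for class I transcription and interferon signalling, 24 were tested and 0 were called. An unadjusted p under 0.05 was found for 4 of them, 3 with higher and 1 with lower values in Cd38-/-. Rfx5, a DNA-binding partner of NLRC5, had the largest difference, 1.59 (standard error 0.57, limma q = 0.0718), from 0.49 to 15.99 TPM in Cd38+/+ and 12.4 to 21.3 in Cd38-/-. Irf1, a transcription factor of the interferon response named here for that role after its values were seen, had a log2 fold change of 0.15 (standard error 0.22, limma q = 0.396). In Cd38+/- against Cd38+/+, 0 genes of any of these lists were called.

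**Figure D4:**
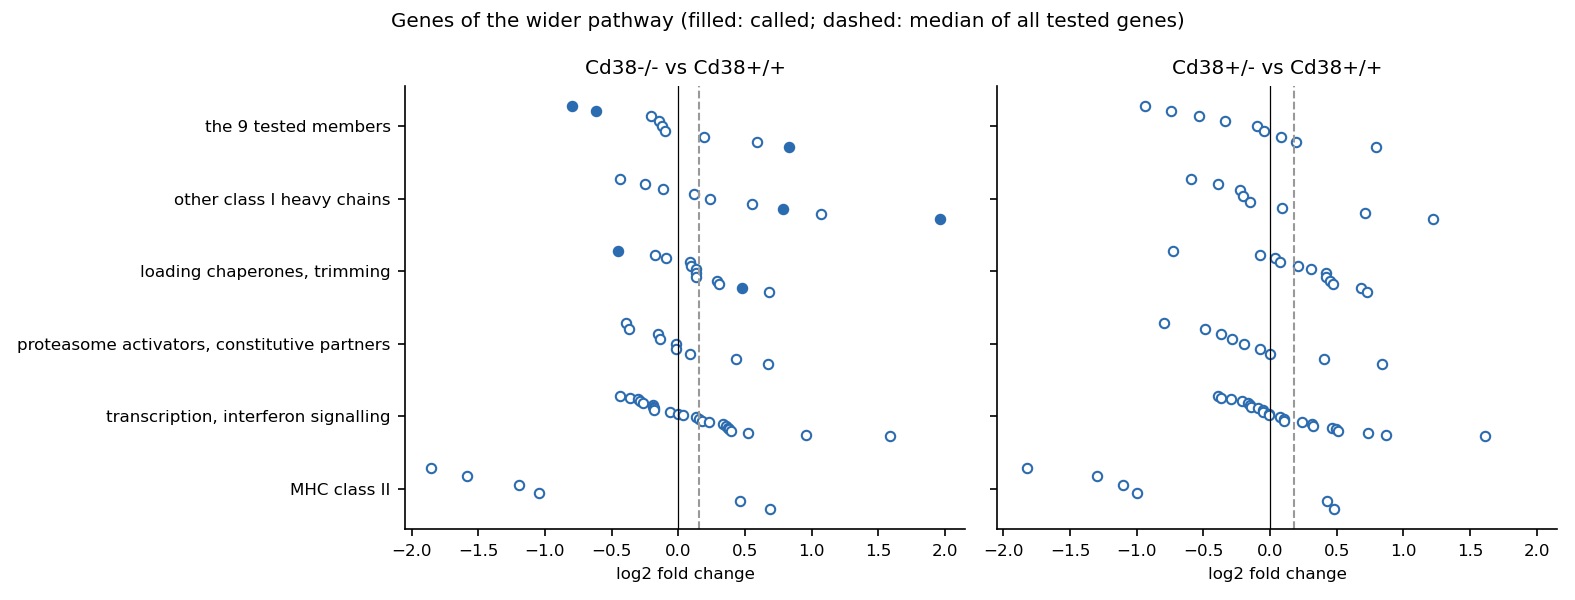
Log2 fold changes of every tested gene of the 9 tested members and 5 wider lists, for Cd38-/- (left) and Cd38+/- (right) against the same Cd38+/+ libraries. Filled points passed the threshold, and the dashed line is the median of all tested genes (0.15 and 0.18). The MHC class II genes hold the lowest value, Cd74, at -1.86 and -1.83.

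MHC class II genes, which mark professional antigen-presenting cells, varied among libraries. Of 7, 6 were tested and 0 were called in Cd38-/- against Cd38+/+, where 3 had an unadjusted p under 0.05, all with lower values. Of all genes tested, 5.99% had such a p with lower values and 17.6% with higher values. Cd74, the invariant chain, had 28.5 to 165 TPM in Cd38+/+ and 7.39 to 62.6 in Cd38-/- (log2 fold change -1.86, limma q = 0.0554), and H2-Aa 8.54 to 23.8 and 1.06 to 17.1 (-1.58, limma q = 0.0719). Of the 6, 4 had lower and 2 higher values in Cd38-/-, the latter being H2-DMa (0.69) and H2-DMb1 (0.47), which encode the peptide exchange factor of class II. The summed TPM of the 7 genes was 267, 294 and 80.4 in Cd38+/+, 55.8 to 92.5 in Cd38+/- and 30.9 to 151 in Cd38-/-. In bulk samples, fewer cells of a type and less RNA per cell cannot be told apart.

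Markers of other cells differed between genotypes and libraries. Of 6 ependymal and choroid plexus markers, all tested, 2 were called higher in Cd38-/-, and an unadjusted p under 0.05 was found for 5, all higher. Of all genes tested, 6.42% were called higher and 1.86% lower. An unadjusted p under 0.05 was found for 17.6% with higher and 5.99% with lower values. Ttr, the main secreted product of the choroid plexus, had 0 to 223 TPM in Cd38+/+ and 99.6 to 1642 in Cd38-/- (limma q = 0.0291, not passing without Cd38-/- replicate 1, 2, 5 or 6). Folr1, a folate receptor, had 34.7 to 60.9 and 69.9 to 138 TPM (log2 fold change 1.14, limma q = 0.0180, not passing without Cd38-/- replicate 1, 2 or 5). The sum of this list was 1619 to 2865 TPM in Cd38+/+, 1715 to 8676 in Cd38+/- and 2046 to 4493 in Cd38-/-. In the same order, 8 oligodendrocyte markers summed to 1297 to 7188, 3090.05 to 11025 and 3174 to 17803 TPM, 9 neuron markers to 61.5 to 65.7, 32.8 to 60.8 and 39.7 to 124 TPM, and 11 mural and fibroblast markers to 729 to 821, 674 to 1134 and 541 to 1163 TPM, and no gene of these 3 lists was called by limma in Cd38-/- (an unadjusted p under 0.05 was found for 0 oligodendrocyte, 1 neuron and 3 mural and fibroblast markers). The sum of 10 lymphocyte markers was 46.2, 31.0 and 7.96 TPM in Cd38+/+, 3.04 to 6.63 in Cd38+/- and 4.48 to 18.8 in Cd38-/-. The sum of 12 endothelial markers was 3711, 2291 and 1311 TPM in Cd38+/+, 1095 to 1866 in Cd38+/- and 1275 to 2749 in Cd38-/-, with 0 called. For 12 microglia markers the sum was 107 to 131, 140 to 172 and 121 to 190.2 TPM, with Tmem119 and Cx3cr1 at 0 in all Cd38+/+ libraries and P2ry12 called higher in Cd38-/- (log2 fold change 1.98, limma q = 0.0479), a call that held without Cd38+/+ replicate 3 and in no other fit that left out a library, and that was lost under 8 of 11 other settings. The sum of 10 astrocyte markers was 10425 to 14896, 15605 to 17506 and 11998 to 15032 TPM, with Aqp4 and Gfap called higher in Cd38-/-, Aqp4 not without Cd38-/- replicate 1 or 5 and Gfap not without Cd38-/- replicate 2. Cd38+/+ replicate 3, the lowest Cd38+/+ library for H2-D1 and B2m, was also the lowest for the sums of the class II genes and of all these marker lists but the ependymal and choroid list, for which it was the highest. Cd38-/- replicate 3, the highest of its group for H2-D1, B2m, Psmb8 and Psmb10, was the highest for the class II, endothelial, oligodendrocyte and mural sums and the lowest for the astrocyte sum. In Cd38+/+, replicate 2 was the lowest for Psmb8 and Psmb10. The part of these cells in the values of the members was not tested.

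**Figure D5:**
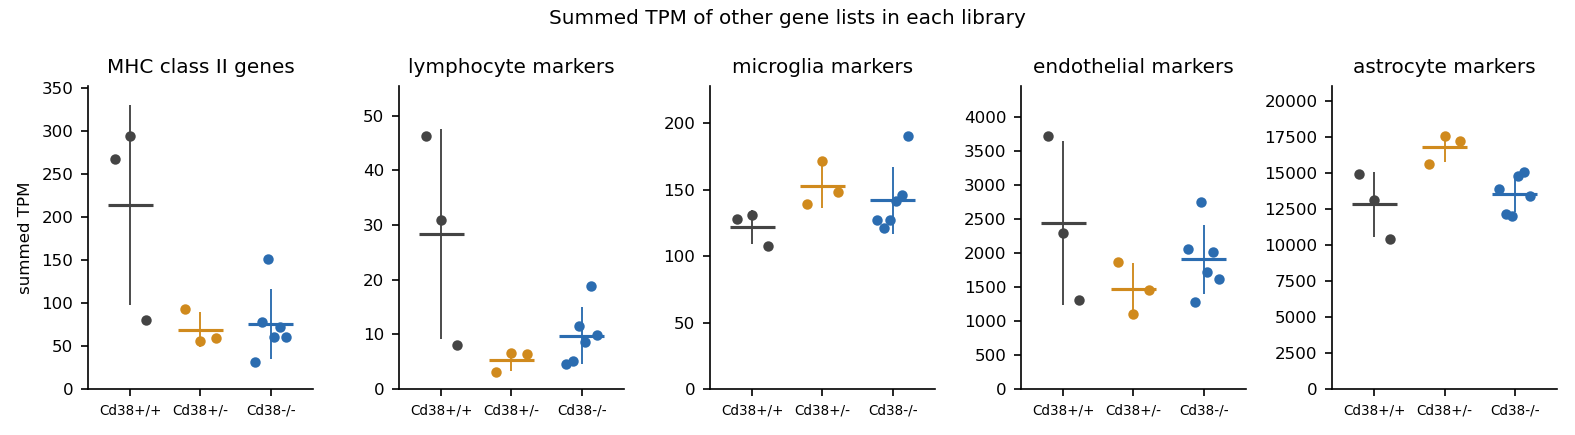
Summed TPM of the 7 MHC class II genes and of the lymphocyte, microglia, endothelial and astrocyte marker lists in each library, with means and ± 1 SD by genotype and a linear axis from 0 in each panel. Cd38+/+ replicates 1 and 2 hold the highest class II sums (267 and 294 TPM), and Cd38+/+ replicate 3 (80.4 TPM) lies within the range of Cd38-/-.

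Finally, the genes whose log2(TPM + 1) across the 12 libraries was most like that of a member were listed for H2-K1, B2m, Tap1 and Psmb8, among 11844 other genes. These correlations are descriptions, since the libraries share genotype and scaling. B2m was most like Surf1 (Pearson's r = 0.93), Cd52 (0.92) and Arhgdib (0.91). Within the 6 Cd38-/- libraries the r with B2m was 0.96 for Surf1 and 0.99 for both Cd52 and Arhgdib. Cd52, with a mean of 6.02 TPM, and Arhgdib are known from leukocytes. The genes were picked by an r that includes these 6 libraries. H2-K1 was most like H2-Q7 (0.81), another class I heavy chain, Tap1 was most like Zbtb22 (0.96), a neighbour of Tapbp, and Psmb8 was most like Pfn1 (0.94). Within the 6 Cd38-/- libraries, r was 0.91 for H2-K1 with H2-Q7, 0.85 for Tap1 with Zbtb22 and 0.65 for Psmb8 with Pfn1. Among the members, Psmb10 ranked 98 of 11844 in likeness to Psmb8 (r = 0.81) and H2-D1 ranked 63 in likeness to B2m (r = 0.78). Psmb9 and Tap1 ranked 29 and 50 in likeness to H2-K1 (r = 0.60 and 0.57). In likeness to Tap1, Psmb9 ranked 1436 (r = 0.73). H2-D1 ranked only 2048 in likeness to H2-K1 (r = 0.28), and Psmb10 and Psmb8 ranked 11294 and 11062 in likeness to Tap1 (r = -0.65 and -0.59).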

How the data were processed

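Expression was measured in 12 libraries of astrocytes. After depletion of ribosomal RNA, the authors prepared cDNA with a SMART-Seq v4 kit for low input, which does not mark strand, and read 100 bases from both ends. According to their notes and methods, Trim Galore 0.6.4, STAR 2.7.1a on mm10 and RSEM 1.2.28 led to the table. The deposited unit is TPM, so depth is unknown and no counting interval is given. The annotation is not given in the sources used here. Positions came from GENCODE vM21 (20503 of 20614 genes matched) and promoters from RefSeq.

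Genotypes came from the labels. A gene entered a comparison if its mean TPM exceeded 5 in a genotype compared, and limma 3.58.1 (lmFit, eBayes with trend, R 4.3.3) was run on log2(TPM + 1) of the libraries compared. Calls needed a Storey q below 0.05 and a fold change of 1.2 or more. The values 0.05 and 1.2 were taken from the study. Its methods do not name the test or the adjustment behind its q-values, and its notes list DESeq2 1.36.0. Limma and the Storey adjustment were chosen here. With Benjamini-Hochberg adjustment, 326 genes in place of 970 were called in Cd38-/- against Cd38+/+, without Tap1 (limma q = 0.0817) and Psmb8 (limma q = 0.0738). Fold changes on this scale understate changes of low genes. Two-sided exact permutation tests (scipy 1.17.1) were run for each member.

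The members and lists were chosen with earlier results of these data known. Genes named beside the members are Cd38, the constitutive partners, and from each list the genes called and those with the largest differences. Some genes under this rule are not reported here. Alternatives were pseudocounts of 0.1 and 5, other filters (none, or at least 1 TPM in every compared library), adjustment, variance, weights, scaling, a length and GC correction, one fit of all libraries, a replicate block and leaving out each library.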

Additional observations from a re-analysis of the deposited data

Results flagged for a closer look

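The Psmb8 TPM of Cd38-/- replicate 3, 57.4, stood apart from the other 5 Cd38-/- libraries (36.4 to 42.4 TPM). Its gap to the nearest library was 0.714 of the range of the group, above the 95% critical value of 0.625 for 6 libraries. Chance gives such a gap in about 1 in 20 groups, and 24 groups were examined. Without this library the log2 fold change of Psmb8 against Cd38+/+ was -0.70 (limma q = 0.0349).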

How the results depend on the processing

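Depth is unknown, and 3 Cd38+/+ libraries limit every comparison with them. In Cd38-/- against Cd38+/+, 3 members were called, 1 with Benjamini-Hochberg adjustment or without the variance trend (Psmb10), and 0 with the replicate block and with quality weights for libraries; leaving out 1 library gave 0 to 4. Replicate numbers are not stated to pair libraries, and same-numbered libraries correlated between -0.09 and 0.04 in their deviations in the comparisons with Cd38+/+, and between the mutants gave 0.46, -0.33 and -0.01. In Cd38+/- against Cd38+/+ the count of 0 became 4 with all 12 libraries in one fit, and between the mutants 2 with library quality weights; leaving out 1 library gave 0 in both. The mean of the loading genes minus the heavy chains, and each inducible subunit minus its partner, moved by less than 1 SD under the alternatives run for them. Those did not include the length and GC correction. The other differences within libraries were not rerun. Over all genes called in Cd38-/-, 77.5% were higher, 58.6% after median-ratio scaling, 50.5% after quantile normalization and 32.4% after the length and GC correction. The median log2 fold change of all genes tested was 0.15, 0.03, 0.01 and -0.07 in the same order. Calls ranged from 1 gene with quality weights to 3119 without Cd38+/+ replicate 3, and were 970 here. In Cd38+/- calls ranged from 0 genes to 1464 with all 12 libraries in one fit (663 without a filter), and between the mutants from 0 to 3120 with quality weights.

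No member that was called changed its direction. Of the values of single genes under the alternatives, 475 kept direction and side of the threshold, 29 lost a call, 7 gained one and 29 changed sign, all of the last at differences that were not called. In Cd38-/- against Cd38+/+, Tapbp was 0.0103 with the replicate block. In Cd38+/-, H2-K1 was -0.0569 with libraries scaled by median ratios and -0.0282 with the length and GC correction, Tap2 was 0.0158 with quality weights and 0.0133 with that correction, and Psmb9 was -0.0819 after quantile normalization. Between the mutants, Tap1 was -0.0884 and Psmb10 -0.0479 with quality weights, and Tapbp 0.0130 with median-ratio scaling, 0.11 with the replicate block and 0.0167 with the length and GC correction. With 1 library left out, the log2 fold changes in Cd38-/- ran from -0.43 to 0.0674 for B2m, -0.36 to 0.0478 for Tap2 and -0.18 to 0.0353 for Tapbp; in Cd38+/- from -0.26 to 0.14 for Tap2, -0.23 to 0.0356 for Tapbp and -0.30 to 0.64 for Psmb9; and between the mutants from -0.0667 to 0.10 for Tap1, -0.14 to 0.13 for Tapbp and -0.0729 to 0.25 for Psmb10. The causes were not tested.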
